A study of Homo sapiens with 6 samples.

Results

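The mitochondrial ribosomal proteins are described here across cells with reduced ZCCHC24 and their controls. They are the protein subunits of the ribosome that works inside mitochondria, and their genes carry the symbols MRPL for the large subunit and MRPS for the small one. Members were all genes of the expression table whose symbol is MRPL or MRPS followed by a number and at most 1 letter. This rule took 76 genes of 57150 in the table, 47 MRPL and 29 MRPS. All 76 entered the test, which needed an average of 1 FPKM or more. Their averages over the 6 libraries ran from 8.35 to 295 FPKM, so none entered only through being high in 1 group. The symbol MRPS17 stood in 2 rows, and the row with the higher mean was used.

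Stranded mRNA sequencing libraries came from MDA-MB-435, an established human cancer cell line, with knockdown of ZCCHC24 (genotype label ZCCHC24 KD, n = 3) or from its control (ZCCHC24 CTRL, n = 3). ZCCHC24 is a zinc finger protein of the CCHC type, and the series title concerns its role in the splicing machinery. No treatment other than the knockdown is named, and the agent behind the knockdown, or given to the controls, was not stated in the sources used here. Separate cultures are not mentioned in the labels either, and p-values therefore measure only the spread between these libraries. FPKM is the number of fragments scaled by transcript length and by library size, so levels of different genes can be compared per length.

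The knockdown was visible in every library. ZCCHC24 itself had 1.54, 1.69 and 1.81 FPKM in the knockdown libraries, against 12.7, 12.3 and 13.2 FPKM in the controls, a log2 fold change of -2.36 ± 0.08 (SE; limma adjusted p = 1.5e-07). The labels call the tissue breast, while MDA-MB-435 has been assigned to melanoma by genotyping. All 8 melanocyte markers examined were tested, and 7 fell, led by PMEL at 19.5 ± 0.145 FPKM in knockdown cells and 89.5 ± 6.33 FPKM in controls, TYRP1 at 58.6 ± 1.23 FPKM in knockdown cells and 196 ± 1.37 FPKM in controls and MLANA at 98.1 ± 5.49 FPKM in knockdown cells and 172 ± 5.94 FPKM in controls. Of 12 breast epithelial markers 6 were too low to be tested, with KRT5 and ELF5 listed at 0 in every library. KRT8 (44.8 ± 2.11 FPKM in knockdown cells and 27.5 ± 3.55 FPKM in controls) and KRT18 (90.8 ± 2.11 FPKM in knockdown cells and 70.4 ± 3.004 FPKM in controls) rose. The other 4 tested, CDH1, KRT7, EPCAM and KRT19, were not called, with log2 fold changes of -0.31 to -0.09, and the median of the 6 was -0.12. Any part of these differences in the changes of the members was not tested. The steps between low values put the worth of 1 fragment at no more than 1.27 times as much in the shallowest library as in the deepest, while the absolute depth is unknown.

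The mitochondrial ribosome makes the few proteins encoded by mitochondrial DNA, all of them membrane subunits of the respiratory chain and of ATP synthase. Its ribosomal RNAs come from mitochondrial DNA, but every one of its proteins is encoded in the nucleus, made in the cytosol and imported. Compared with its bacterial ancestor it has lost RNA and gained proteins, so its subunits fall into those with a bacterial homologue and those specific to mitochondria. The promoters of these genes are known to hold sites for the transcription factors NRF1, GABPA (an ETS factor) and YY1.

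Stretches of DNA at the starts of members with large changes or high levels were chosen for display. MRPL46, which has neither but starts beside the member MRPS11, was shown as well. The reason was that several of these genes start beside a neighbour on the other strand whose own change is reported below. Sequences are from RefSeq (GRCh38.p14), 5′ to 3′ on the strand of the named member and ending at the base before its start. Capitals mark a match, on either strand, to the letters searched for ETS factors (CCGGAAG) or for NRF1 (GCATGCGC). The first 6 stretches lie between the start of the member and that of its neighbour, which is CYB5RL for MRPL37 (chr1:54200031-54200166, plus strand), MITD1 for MRPL30 (chr2:99181059-99181183, plus strand), EME1 for MRPL27 (chr17:50373185-50373228, minus strand), HELQ for MRPS18C (chr4:83455884-83456057, plus strand), PTCD2 for MRPS27 (chr5:72320241-72320372, minus strand) and MRPS11 for MRPL46 (chr15:88467389-88467638, minus strand, the 250 bases nearest MRPL46 of 319).
MRPL37: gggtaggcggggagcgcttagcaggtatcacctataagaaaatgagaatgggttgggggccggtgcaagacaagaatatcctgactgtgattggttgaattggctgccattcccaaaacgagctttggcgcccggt
MRPL30: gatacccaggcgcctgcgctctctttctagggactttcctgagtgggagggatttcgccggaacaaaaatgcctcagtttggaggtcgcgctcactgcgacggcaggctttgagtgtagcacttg
MRPL27: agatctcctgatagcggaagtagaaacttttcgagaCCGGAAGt
MRPS18C: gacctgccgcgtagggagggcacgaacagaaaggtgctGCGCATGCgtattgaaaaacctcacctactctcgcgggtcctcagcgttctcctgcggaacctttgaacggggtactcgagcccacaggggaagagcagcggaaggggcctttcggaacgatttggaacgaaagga
MRPS27: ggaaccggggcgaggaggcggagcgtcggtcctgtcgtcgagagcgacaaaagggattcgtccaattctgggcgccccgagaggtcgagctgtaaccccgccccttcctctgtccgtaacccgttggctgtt
MRPL46: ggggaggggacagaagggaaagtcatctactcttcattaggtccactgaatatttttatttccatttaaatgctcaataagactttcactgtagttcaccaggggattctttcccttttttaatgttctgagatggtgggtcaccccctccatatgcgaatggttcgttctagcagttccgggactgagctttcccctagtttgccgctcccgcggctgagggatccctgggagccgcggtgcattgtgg

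Windows of 30 bases around an ETS motif are shown for 5 members without such a stretch above: MRPL40 and MRPL47, which rose, MRPL53, which fell, and MRPL33 and MRPL51, which have the highest levels. They lie at chr22:19432523-19432552 (plus strand), chr3:179604659-179604688 (minus strand), chr2:74472662-74472691 (minus strand), chr2:27771700-27771729 (plus strand) and chr12:6493348-6493377 (minus strand), in the same build.
MRPL40: ggggcgcacgcCCGGAAGcggcgagggtag
MRPL47: ggcttgagacgCCGGAAGtgacgctatcgt
MRPL53: ctgcacgagttCTTCCGGggcggaggtcac
MRPL33: cgggccgtgccCCGGAAGcagttgttgttg
MRPL51: cggcaggcggaCCGGAAGcactgaggcggg

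Mitochondrial ribosomal protein genes changed in both directions in knockdown cells, in nearly equal numbers and mostly by small amounts. At a limma adjusted p (Benjamini-Hochberg over 13343 tested genes) below 0.05, 31 of the 76 rose, 30 fell and 15 did not pass. Their share of called genes was 80.3%, beside 72.4% of all tested genes, of which 37% were higher and 35.4% lower. Among the 8532 tested genes within the members' range of levels it was 78.6%, so the share called is near the background. The sizes, compared without a test, were smaller than in the background. The median absolute log2 fold change was 0.32 over the members, 0.41 over all tested genes and 0.40 over those within the members' range of levels. Mean FPKM differed by at least 1.5-fold in 16 members, 5 higher and 11 lower. That is 21.1% of the members, against 39.8% of all tested genes and 35.5% of those within the members' range of levels. The libraries of the 2 groups did not overlap in 63 of the 76 members (82.9%, beside 75.9% of all tested genes). The median log2 fold change was -0.03 over the members and 0.01 over all tested genes.

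**Figure D1:**
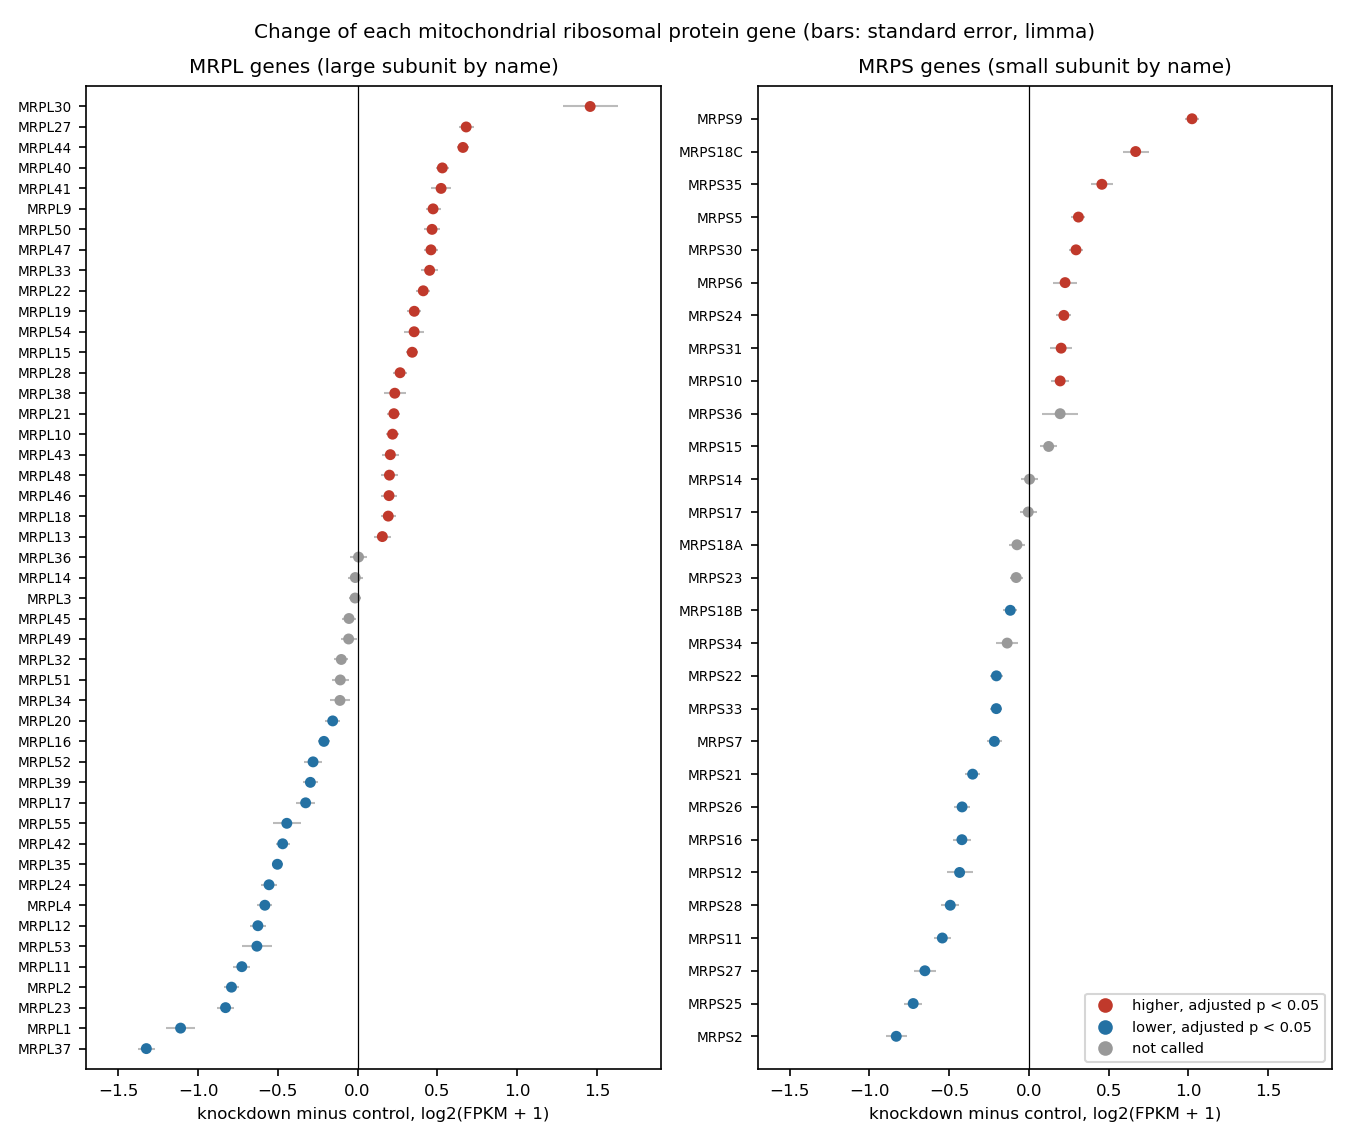
Knockdown minus control on log2(FPKM + 1) for each of the 47 MRPL genes (left panel) and 29 MRPS genes (right panel), ordered by size. Bars are standard errors of the limma fit, and colours mark the call at an adjusted p below 0.05. Changes run from -1.32 for MRPL37 to 1.46 for MRPL30, and most lie within 0.5 of zero.

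The 2 subunits, taken by gene name, had similar profiles of calls with small differences in balance. Among the 47 MRPL genes, 22 rose and 17 fell while 8 stayed uncalled, and the median log2 fold change was -0.01. Among the 29 MRPS genes, 9 rose and 13 fell while 7 stayed uncalled, and the median was -0.08. As shares, 46.8% of the MRPL genes rose and 36.2% fell, and 31.0% of the MRPS genes rose and 44.8% fell. Of all tested genes 37% were called higher and 35.4% lower. The medians differed by 0.06 (MRPL minus MRPS), and no test was made of this difference because genes are not replicates. The sign of the MRPS median depended on which genes were counted. Over the 13 MRPS genes whose listed locus holds no other tested gene it was 0.12, and over the 26 such MRPL genes it was -0.01. The 13 include MRPS18A (-0.07), MRPS30 (0.30) and MRPS36 (0.20), which are not small-subunit proteins by structure.

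Summed levels of the subunits moved by different amounts. MRPS genes summed to 1725 ± 4.63 FPKM in knockdown cells and 1872 ± 51.5 FPKM in controls, while MRPL genes summed to 3596 ± 39.2 FPKM in knockdown cells and 3653 ± 102 FPKM in controls (SD, n = 3 each). The MRPL sum was 2.11, 2.07 and 2.08 times the MRPS sum in the knockdown libraries, against 1.95, 1.95 and 1.95 times in the controls. In this ratio the knockdown libraries lay above the controls without overlap. The summed FPKM of all genes also differed, at 681922 to 696942 in the knockdown libraries and 717545 to 733644 in the controls. As a share of that sum MRPL genes were higher in the knockdown libraries, at 0.518% to 0.525% against 0.493% to 0.515% in the controls. The MRPS share was 0.248% to 0.253% in the knockdown libraries and 0.253% to 0.264% in the controls, and here the groups overlapped. All members together made up 0.772% ± 0.00542 of the summed FPKM of a library in knockdown cells and 0.763% ± 0.0170 in controls (SD, n = 3 each), with overlapping libraries.

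**Figure D2:**
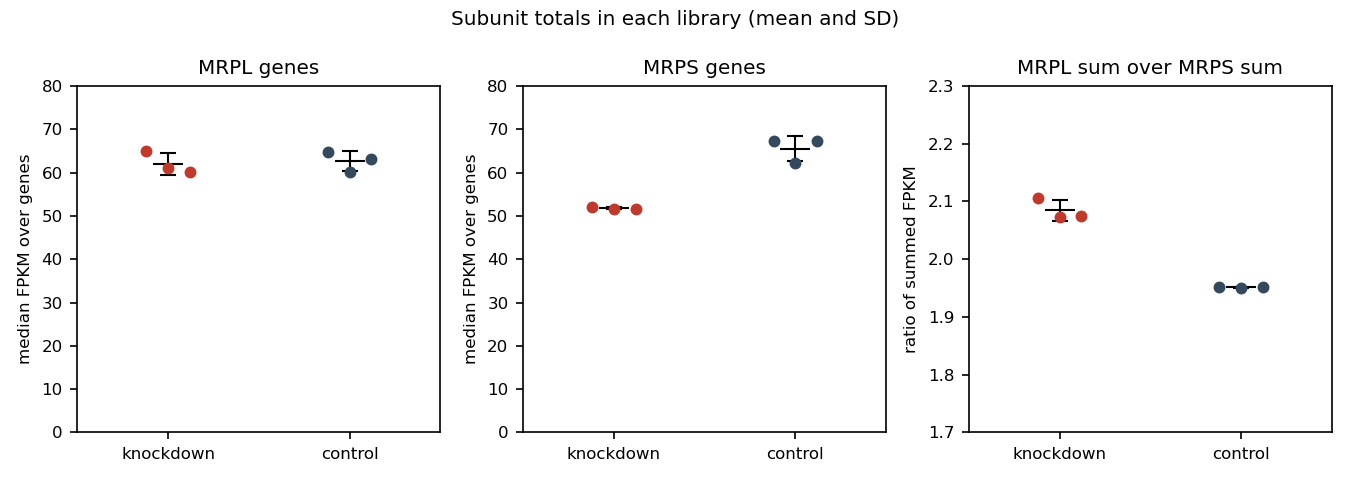
Median FPKM over the MRPL genes (left) and over the MRPS genes (middle), on axes from 0, and the ratio of the summed FPKM of MRPL to that of MRPS genes (right, axis not starting at 0). Points are libraries, and bars give mean and SD (n = 3 each). The MRPS medians were 51.7 ± 0.212 FPKM in knockdown cells and 65.5 ± 2.88 FPKM in controls, while the MRPL medians overlapped. These are levels at the middle rank of each library, and the median log2 fold change of the MRPS genes was -0.08.

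MRPL37 and MRPL1 were the members with the largest falls. MRPL37, a protein of the large subunit that bacteria lack, had 32.4, 29.2 and 31.8 FPKM in the knockdown libraries, against 81.8, 76.7 and 79.4 FPKM in the controls. Its log2 fold change was -1.32 ± 0.05 (SE; limma adjusted p = 2.9e-07), a 2.55-fold lower mean. Its listed locus (hg19 chromosome 1, 54598746 to 54879152) also holds 7 other rows of the table. Of those, CYB5RL and SSBP3 are tested genes, and how fragments were divided among the rows was not tested. MRPL1, the homologue of the bacterial protein of the L1 stalk, where spent tRNA leaves, had 9.85, 9.18 and 9.03 FPKM in the knockdown libraries, against 18.5, 21.9 and 23.9 FPKM in the controls. In MRPL1 the log2 fold change was -1.11 ± 0.09 (SE; limma adjusted p = 1.3e-05).

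**Figure D3:**
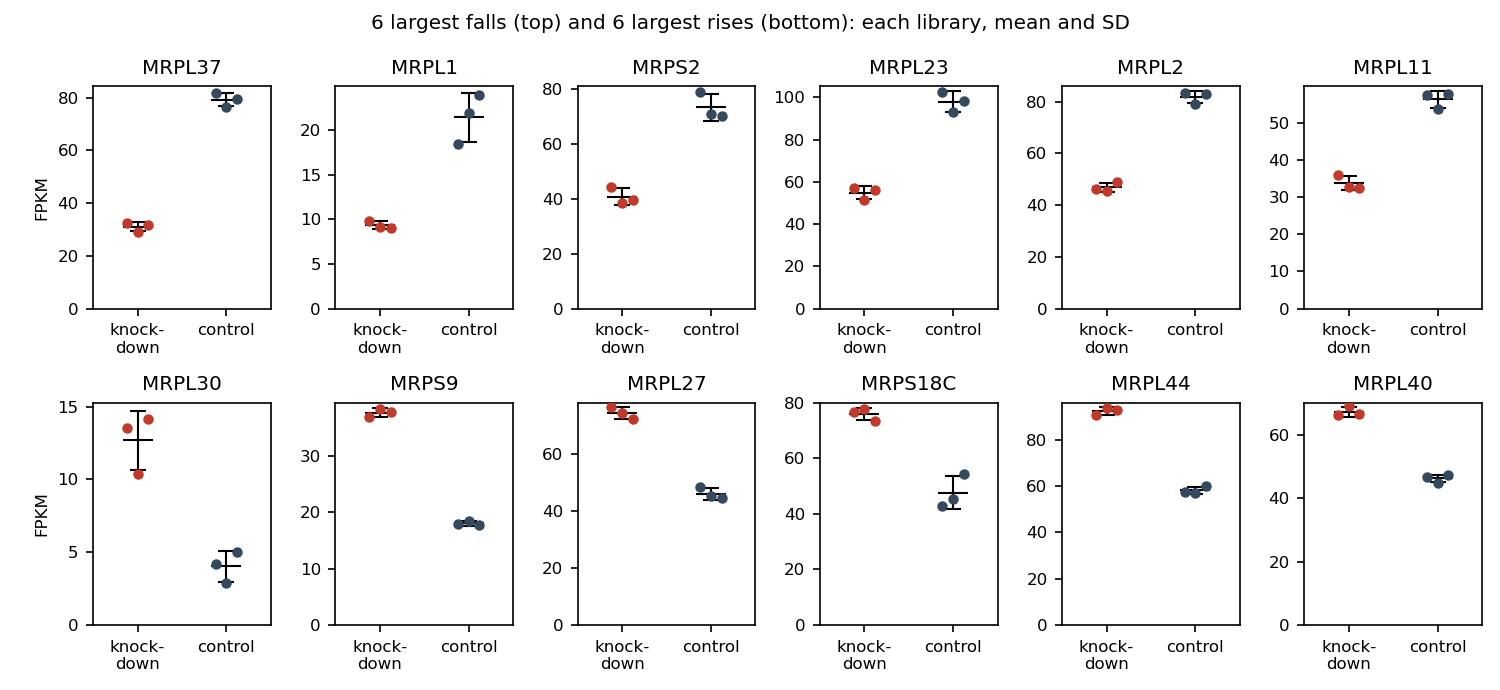
FPKM in each library for the 6 largest falls (top row) and the 6 largest rises (bottom row) among members whose groups do not overlap, with knockdown libraries left of controls in each panel. Points are libraries, bars give mean and SD (n = 3 each), and each axis starts at 0. The groups are separate in all 12 panels.

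The next falls in the large subunit were of MRPL23, MRPL2, MRPL11, MRPL53 and MRPL12. MRPL23, which stands at the mouth of the exit tunnel for nascent chains, had 57.1, 51.4 and 56.0 FPKM in the knockdown libraries, against 103, 93.1 and 98.6 FPKM in the controls (log2 fold change -0.83 ± 0.05 SE, limma adjusted p = 3.7e-06). MRPL2, whose bacterial homologue lies next to the catalytic centre, had 46.2, 45.5 and 49.0 FPKM in the knockdown libraries, against 83.2, 79.2 and 83.1 FPKM in the controls (-0.79 ± 0.04 SE, limma adjusted p = 1.6e-06). In both genes each knockdown library lay below each control. MRPL11, of the base of the stalk that recruits translation factors, averaged 33.7 ± 1.88 FPKM in knockdown cells and 56.4 ± 2.27 FPKM in controls (-0.73 ± 0.05 SE, limma adjusted p = 6.9e-06). MRPL12, the stalk protein itself, which has also been reported to bind mitochondrial RNA polymerase, was one of the 3 highest MRPL genes and averaged 126 ± 4.52 FPKM in knockdown cells and 196 ± 12.1 FPKM in controls (-0.63 ± 0.05 SE, limma adjusted p = 1.3e-05). MRPL53, a protein specific to mitochondria, averaged 37.6 ± 4.09 FPKM in knockdown cells and 58.8 ± 5.97 FPKM in controls (-0.63 ± 0.09 SE, limma adjusted p = 3.6e-04).

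In the small subunit the largest falls were of MRPS2, MRPS25 and MRPS27. MRPS2, the homologue of bacterial S2, had 44.3, 38.4 and 39.7 FPKM in the knockdown libraries, against 79.0, 70.9 and 70.1 FPKM in the controls, a log2 fold change of -0.83 ± 0.07 (SE; limma adjusted p = 1.1e-05). MRPS25, which is specific to mitochondria, had 46.4, 44.8 and 42.5 FPKM in the knockdown libraries, against 78.4, 75.5 and 69.1 FPKM in the controls (-0.73 ± 0.06 SE, limma adjusted p = 9.8e-06). MRPS27, a pentatricopeptide repeat protein also specific to mitochondria, had 30.8, 33.3 and 32.7 FPKM in the knockdown libraries, against 48.2, 48.8 and 57.2 FPKM in the controls (-0.65 ± 0.07 SE, limma adjusted p = 6.0e-05). The groups were separate in all 3 genes, with the knockdown mean 1.59-fold to 1.80-fold below the control mean. MRPS11, a homologue of a protein that lines the mRNA path in bacteria, averaged 49.3 ± 2.17 FPKM in knockdown cells and 72.3 ± 3.82 FPKM in controls (-0.54 ± 0.05 SE, limma adjusted p = 3.3e-05).

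MRPL30 and MRPS9 had the largest rises. MRPL30, the homologue of bacterial L30, had 13.5, 10.4 and 14.1 FPKM in the knockdown libraries, against 4.22, 2.86 and 4.99 FPKM in the controls. It was the weakest member by its mean over all libraries and the one with the largest standard error, a log2 fold change of 1.46 ± 0.17 (SE; limma adjusted p = 1.0e-04). Its listed locus (hg19 chromosome 2, 99613723 to 100016728) also holds 9 other rows of the table, 7 of them tested genes, and how fragments were divided among them was not tested. MRPS9, the homologue of bacterial S9, had 36.9, 38.4 and 37.8 FPKM in the knockdown libraries, against 17.9, 18.5 and 17.7 FPKM in the controls. Every knockdown library of MRPS9 was above every control, and its log2 fold change was 1.02 ± 0.04 (SE; limma adjusted p = 4.5e-07), a 2.09-fold higher mean.

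The next 4 rises lay between 1.45-fold and 1.61-fold. Among them MRPL27 and MRPL40 are both listed in the central protuberance. MRPL27, whose bacterial homologue reaches into the catalytic centre, had 76.5, 74.5 and 72.4 FPKM in the knockdown libraries, against 48.6, 45.3 and 44.5 FPKM in the controls (log2 fold change 0.68 ± 0.05 SE, limma adjusted p = 4.6e-06). MRPS18C, one of the human relatives of bacterial S18, had 76.8, 77.8 and 73.5 FPKM in the knockdown libraries, against 43.0, 45.5 and 54.5 FPKM in the controls (0.67 ± 0.08 SE, limma adjusted p = 1.2e-04). MRPL44, a protein with a ribonuclease III fold near the exit tunnel, had 90.6, 93.9 and 93.0 FPKM in the knockdown libraries, against 57.5, 57.04 and 60.0 FPKM in the controls (0.66 ± 0.04 SE, limma adjusted p = 2.0e-06). MRPL40, of the central protuberance, averaged 67.2 ± 1.498 FPKM in knockdown cells and 46.2 ± 1.22 FPKM in controls (0.53 ± 0.04 SE, limma adjusted p = 7.9e-06). No knockdown library overlapped a control in these genes.

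Smaller rises completed the 10 largest. MRPL41, which is specific to mitochondria, averaged 71.7 ± 3.82 FPKM in knockdown cells and 49.6 ± 3.67 FPKM in controls (0.52 ± 0.06 SE, limma adjusted p = 1.1e-04). MRPL9, the homologue of a bacterial protein that extends from the side of the large subunit, averaged 86.1 ± 2.05 FPKM in knockdown cells and 61.8 ± 3.14 FPKM in controls (0.47 ± 0.05 SE, limma adjusted p = 3.6e-05). MRPL50, also specific to mitochondria, averaged 27.7 ± 0.536 FPKM in knockdown cells and 19.7 ± 0.706 FPKM in controls (0.47 ± 0.05 SE, limma adjusted p = 4.2e-05), and MRPL47, the homologue of bacterial L29 at the exit tunnel, averaged 100.5 ± 1.24 FPKM in knockdown cells and 72.8 ± 4.01 FPKM in controls (0.46 ± 0.05 SE, limma adjusted p = 3.9e-05). The other 21 members that rose had log2 fold changes of 0.15 (MRPL13) to 0.46 (MRPS35). The other 20 that fell lay between -0.58 (MRPL4) and -0.12 (MRPS18B). Among these smaller changes 6 calls depended on single libraries. MRPL13 was not called without control 1, knockdown 2 or knockdown 3 (limma adjusted p = 0.060 to 0.088), and MRPS18B was not called without control 1, control 3, knockdown 2 or knockdown 3 (limma adjusted p = 0.086 to 0.14). MRPS6 was not called without control 1, control 2, knockdown 2 or knockdown 3 (limma adjusted p = 0.056 to 0.074), and MRPL20 was not called without knockdown 3 (limma adjusted p = 0.051). MRPL38 and MRPS31, the other 2, are given with their site and class.

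The genes whose name and place differ were looked at by themselves. MRPS30 and MRPS18A are part of the large subunit in structures of the human ribosome despite their names. MRPS30 rose, with 83.5, 84.7 and 86.5 FPKM in the knockdown libraries, against 65.6, 71.1 and 70.3 FPKM in the controls (log2 fold change 0.30 ± 0.04 SE, limma adjusted p = 3.6e-04). MRPS18A had 61.4, 57.8 and 62.4 FPKM in the knockdown libraries, against 67.2, 62.2 and 62.0 FPKM in the controls, overlapping groups and a log2 fold change of -0.07 ± 0.05 (SE; limma adjusted p = 0.21). The third is MRPS36, which is now assigned to the 2-oxoglutarate dehydrogenase complex and not to the ribosome. It had 41.1, 50.6 and 51.3 FPKM in the knockdown libraries, against 36.5, 47.7 and 40.5 FPKM in the controls, with overlapping groups, and did not pass (0.20 ± 0.11 SE, limma adjusted p = 0.15). It was called higher without knockdown 1 (0.30, limma adjusted p = 0.036) and without control 2 (0.30, limma adjusted p = 0.034). With subunits assigned by structure, 23 of 49 large-subunit genes rose and 17 fell (median -0.01), and 8 of 26 small-subunit genes rose and 13 fell (median -0.13). Over all tested genes the shares were 37% higher and 35.4% lower.

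Proteins inherited from bacteria and proteins added in mitochondria did not separate by direction. Of 46 members with a bacterial homologue 19 rose, 19 fell and 8 did not pass (median log2 fold change -0.01), and of 29 specific to mitochondria 12 rose, 11 fell and 6 did not pass (median -0.07). Within the mitochondria-specific proteins the 2 subunits differed in balance. In the large subunit 10 of 19 rose and 5 fell (median 0.20), and in the small subunit 2 of 10 rose and 6 fell (median -0.17). Among all tested genes 37% were called higher and 35.4% lower. MRPS31 (0.20) and MRPS35 (0.46) were the 2 that rose in the small subunit, and MRPS31 was not called without control 1, control 2 or knockdown 3 (limma adjusted p = 0.069 to 0.10). These counts are descriptions, and the difference between the classes was not tested.

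By site, the balance of calls varied between parts of the ribosome. In the central protuberance, the crown of the large subunit, 6 of 7 listed genes rose and 1, MRPL52, fell (median 0.20), beside 37% of all tested genes called higher and 35.4% called lower. MRPL38, one of the 6, was not called without control 2 (limma adjusted p = 0.052) or without knockdown 1 (limma adjusted p = 0.056). In the stalks 4 of 6 fell, namely MRPL1, MRPL11, MRPL12 and MRPL53, while MRPL10 and MRPL54 rose by 0.22 and 0.35 (median -0.63). Around the exit tunnel 3 of 8 rose and 4 fell, with MRPL45, which anchors the ribosome to the inner membrane, at -0.05 and not called (median -0.18). Around the decoding site and mRNA path of the small subunit 6 of 8 fell and MRPS5 and MRPS24 rose, by 0.31 and 0.22 (median -0.39). The lists are of 6 to 8 genes each, and no test was made over them. They hold only MRPL and MRPS genes and may be incomplete, so the counts depend on which genes were listed. The large-subunit genes MRPL55 (-0.44) and ICT1 (-0.59), which fell, are not on the list of the central protuberance.

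**Figure D4:**
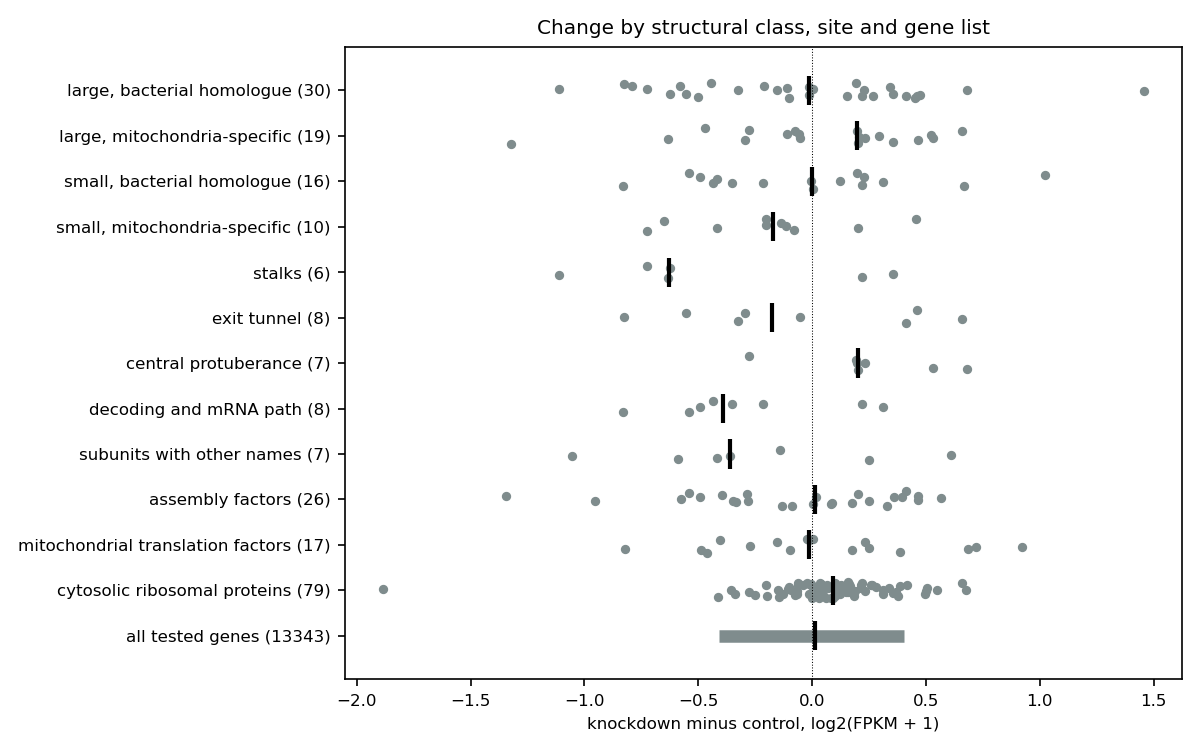
Knockdown minus control on log2(FPKM + 1) by structural class, site and gene list, with the number of tested genes in brackets. Points are genes, black ticks are medians, and the grey bar in the last row spans the first to the third quartile of all tested genes (-0.41 to 0.40). The listed genes of the central protuberance have their median at 0.20 and those of the stalks at -0.63.

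Levels of the members spanned a wide range that kept much of its order. In knockdown cells the highest mean, of MRPL51, was 30.3 times the lowest, of MRPL1, and in controls MRPL51 was 76.1 times MRPL30. MRPL51 had 274, 278 and 299 FPKM in the knockdown libraries, against 326, 290.2 and 302 FPKM in the controls, and did not pass (-0.11 ± 0.05 SE, limma adjusted p = 0.10). MRPL33, the second of the MRPL genes, had 274, 262 and 265 FPKM in the knockdown libraries, against 184, 191 and 211 FPKM in the controls, and rose (0.45 ± 0.05 SE, limma adjusted p = 9.3e-05). MRPL12, described above, was the third. Among the MRPS genes the highest were MRPS34 with 127 ± 5.18 FPKM in knockdown cells and 140.2 ± 13.8 FPKM in controls, MRPS22 with 104 ± 1.32 FPKM in knockdown cells and 120.4 ± 5.75 FPKM in controls and MRPS23 with 106 ± 2.05 FPKM in knockdown cells and 112 ± 4.19 FPKM in controls. Of these 3 MRPS22 fell (-0.20 ± 0.04 SE, limma adjusted p = 0.0028), while MRPS34 (-0.14 ± 0.07 SE, limma adjusted p = 0.11) and MRPS23 (-0.08 ± 0.04 SE, limma adjusted p = 0.11) did not pass and had overlapping groups. Without control 2 MRPL51 (-0.15, limma adjusted p = 0.045), MRPS34 (-0.20, limma adjusted p = 0.020) and MRPS23 (-0.11, limma adjusted p = 0.040) were called lower.

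At the low end, MRPL30 and MRPL1 were the weakest MRPL genes, and MRPS17 and MRPS14 the weakest MRPS genes. MRPS14 had 15.6, 14.8 and 15.8 FPKM in the knockdown libraries, against 15.8, 15.1 and 15.1 FPKM in the controls, with overlapping groups (0.0042 ± 0.05 SE, limma adjusted p = 0.95). MRPS17 had 12.6, 12.5 and 12.1 FPKM in the knockdown libraries, against 12.6, 12.6 and 12.1 FPKM in the controls, also overlapping (-0.0039 ± 0.05 SE, limma adjusted p = 0.95). The second row with that symbol was weaker, at 1.89, 1.89 and 2.62 FPKM in the knockdown libraries, against 0.394, 0.819 and 1.06 FPKM in the controls, and it rose (0.84 ± 0.18, SE; limma adjusted p = 0.0028). This second row averaged 2.13 FPKM in knockdown cells and 0.758 FPKM in controls. It passed the filter of 1 FPKM only through the knockdown libraries, where it is high, so its call is no support for a rise. With the 2 rows summed MRPS17 was called higher (0.13, limma adjusted p = 0.040), and that call rests on the second row as well.

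Most neighbours in the order of levels could not be told apart. Of 75 neighbouring pairs the library ranges overlapped in 56 in knockdown cells and in 67 in controls. Spearman's rho between the mean levels of the 2 groups was 0.80 across the 76 genes, which share libraries and are not replicates. On log2(FPKM + 1), knockdown and control libraries correlated at 0.858 to 0.872 over the members. Libraries of the same group correlated at 0.991 to 0.996. Over all tested genes, which span a wider range of levels, these values were 0.927 to 0.932 and 0.986 to 0.988. MRPL37 moved furthest, to rank 66 in knockdown cells against rank 24 in controls. In the other direction MRPL44 stood at rank 16 in knockdown cells and rank 47 in controls.

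Neighbouring genes bear on how far a change belongs to the member alone. The listed locus of 37 of the 76 members holds another tested gene, and that of 10 of the 16 members that differed by at least 1.5-fold does. Whether counting used the strand of the reads was not stated in the sources used here. By RefSeq, 15 pairs of a member and a tested gene start within 1000 bases of each other on opposite strands, facing away from each other, and in 1 pair, MRPL46 with MRPS11, both are members. Both genes were called in 9 of these pairs, 6 in the same direction and 3 in opposite directions, beside 204 of 366 in the same direction (55.7%) among all such pairs of tested genes.

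Opposite calls came from MRPL46 and MRPS11, MRPL27 and EME1, and MRPL18 and TCP1. MRPL46, of the central protuberance, and MRPS11 are both members and start 320 bases apart. MRPL46 had 47.1, 45.4 and 42.9 FPKM in the knockdown libraries, against 41.1, 37.9 and 38.7 FPKM in the controls, and rose (0.20 ± 0.05 SE, limma adjusted p = 0.0089), whereas MRPS11 had 50.3, 46.8 and 50.8 FPKM in the knockdown libraries, against 71.3, 69.1 and 76.5 FPKM in the controls, and fell. MRPL27 rose although EME1, a DNA repair nuclease subunit whose start is 45 bases away, fell, with a log2 fold change of -1.60 (limma adjusted p = 3.3e-06). The stretch of 44 bases between them, shown above, holds an ETS motif next to the start of MRPL27. MRPL18, also of the central protuberance, rose by 0.19, and TCP1, a subunit of the cytosolic chaperonin, changed by -0.19 (limma adjusted p = 0.0088).

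Same-direction pairs included the largest fall. CYB5RL, 137 bases from MRPL37, fell (-0.37, limma adjusted p = 0.023), and PTCD2, a mitochondrial RNA-binding protein 133 bases from MRPS27, fell (-0.28, limma adjusted p = 0.0095). HELQ, a helicase 175 bases from MRPS18C, rose (0.34, limma adjusted p = 0.002). SARS2, the mitochondrial seryl-tRNA synthetase 181 bases from MRPS12, fell (-0.40, limma adjusted p = 0.0045), beside MRPS12 itself at -0.43. MITD1, 126 bases from MRPL30, did not pass (-0.14, limma adjusted p = 0.19). The neighbour with the largest change was NCAPD2, a condensin subunit 840 bases from MRPL51, which averaged 29.3 FPKM in knockdown cells and 96.2 FPKM in controls (-1.68, limma adjusted p = 1.6e-07), beside MRPL51 with no call. FAU, 49 bases from MRPL49, and PSMA2, 202 bases from MRPL32, rose, by 0.17 (limma adjusted p = 0.029) and by 0.55 (limma adjusted p = 6.1e-06), while neither member was called.

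**Figure D5:**
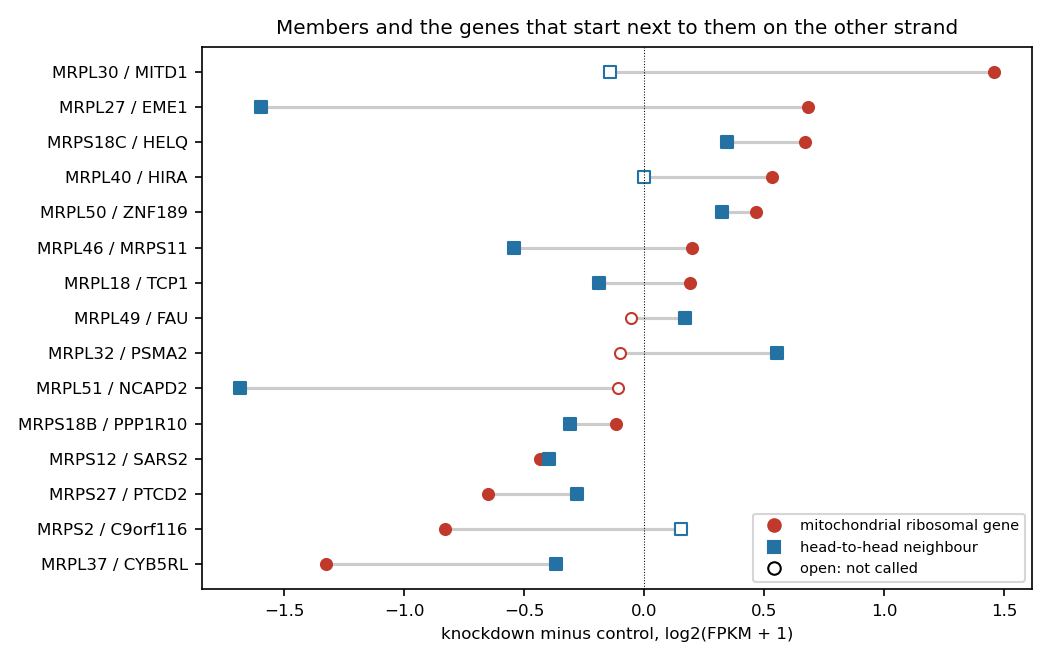
Knockdown minus control on log2(FPKM + 1) for 15 pairs of a member (circles) and a tested gene that starts within 1000 bases of it on the other strand (squares), joined by a line. MRPS11, also a member, is drawn as the neighbour of MRPL46. Open symbols did not pass the test. MRPL27 and EME1 lie on opposite sides of zero, while MRPL37 and CYB5RL are both lower.

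Promoter letters were compared as a description for the 67 members with an entry in the RefSeq table, over 250 bases before and 50 after the start. The ETS letters given above were present in 28 of 67 members (41.8%), against 10.3% of 35116 promoters of all genes and 20.7% of the 9475 of tested genes. The letters searched for YY1, AAGATGGCG, were present in 13 (19.4%, against 1.75% and 4.34%) and those for NRF1 in 6 (8.96%, against 3.05% and 5.91%). An E-box, the MYC site CACGTG, was found in 6 (8.96%, against 7.26% and 10.5%), the E2F letters TTTCGCGC in 1 (1.49%, against 0.515% and 1.18%) and the box TATAAA in 2 (2.99%, against 11.5% and 5.45%). The ETS and YY1 letters overlapped in 0 members.

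At least 1 of the ETS, YY1 and NRF1 motifs was found in 18 of 27 matched members that rose, 13 of 26 that fell and 7 of 14 that did not pass. Over all tested genes with an entry the shares were 32.9% of those higher, 24.3% of those lower and 26.9% of those not called. Among the 10 largest rises 6 of 10 held one, in MRPL30, MRPL27, MRPS18C, MRPL40, MRPL50 and MRPL47. The window searched differs from the stretches shown above, and the ETS letters of MRPL30 and MRPS18C lie outside those stretches. Among the 10 largest falls 8 had an entry and 1, MRPL53, held one. These are matches of letters in a window and carry no test.

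Coding transcripts of members were short. The longest protein-coding transcript in GENCODE v29, matched by Ensembl ID for 74 members, had a median of 1516 bases, against 3430 bases over 11072 tested genes. Among members the medians were 1643 bases for those that rose, 1547 for those that fell and 1148 for those that did not pass. Over all tested genes they were 3712 bases for the genes higher and 3046 for the genes lower.

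Subunits that carry other names were called in both directions. DAP3, the GTP-binding protein of the small subunit, known also from cell death, had 75.2, 76.3 and 77.5 FPKM in the knockdown libraries, against 159, 163 and 157 FPKM in the controls (-1.05 ± 0.03 SE, limma adjusted p = 1.6e-07). ICT1, a peptide release factor built into the large subunit, fell (-0.59 ± 0.06 SE, limma adjusted p = 5.0e-05), as did the large-subunit protein MRP63 (-0.42 ± 0.06 SE, limma adjusted p = 4.6e-04) and the small-subunit proteins PTCD3 (-0.36 ± 0.05 SE, limma adjusted p = 3.4e-04) and AURKAIP1 (-0.14 ± 0.05 SE, limma adjusted p = 0.039). GADD45GIP1, which lies near the exit tunnel, rose, with 117 ± 3.84 FPKM in knockdown cells and 76.2 ± 7.59 FPKM in controls (0.61 ± 0.07 SE, limma adjusted p = 9.1e-05), and CHCHD1, a small-subunit protein, rose (0.25 ± 0.06 SE, limma adjusted p = 0.0058). All 7 of these genes were called, 2 higher and 5 lower, with a median log2 fold change of -0.36, beside 72.4% called and 35.4% called lower among all tested genes.

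Factors that assemble the ribosome and run translation on it were called about as often as other genes. Of 26 assembly factors 9 rose, 10 fell and 7 did not pass (median 0.01), which is 73.1% called beside 72.4% of all tested genes. RBFA, which matures the RNA of the small subunit, had 7.83, 6.10 and 8.04 FPKM in the knockdown libraries, against 20.6, 19.2 and 20.4 FPKM in the controls, and fell 2.74-fold (-1.35 ± 0.10 SE, limma adjusted p = 5.6e-06). MPV17L2, which assists the assembly of the ribosome, averaged 6.48 ± 0.157 FPKM in knockdown cells and 13.5 ± 0.497 FPKM in controls (-0.95 ± 0.06 SE, limma adjusted p = 2.5e-06), and FTSJ2, a methyltransferase of the large ribosomal RNA, averaged 24.7 ± 0.834 FPKM in knockdown cells and 37.3 ± 0.609 FPKM in controls (-0.58 ± 0.04 SE, limma adjusted p = 8.9e-06).

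Of 17 factors of mitochondrial translation 7 rose, 5 fell and 5 did not pass (median -0.01), or 70.6% called. MTRF1, a release factor relative, had 19.0, 19.7 and 19.9 FPKM in the knockdown libraries, against 9.70, 9.32 and 10.5 FPKM in the controls, and rose (0.92 ± 0.06 SE, limma adjusted p = 3.0e-06). LRPPRC, which stabilises mitochondrial mRNAs, had 72.9, 76.5 and 65.6 FPKM in the knockdown libraries, against 119, 133 and 129 FPKM in the controls, and fell (-0.82 ± 0.07 SE, limma adjusted p = 1.0e-05). MTIF3, an initiation factor, rose (0.72 ± 0.08 SE, limma adjusted p = 5.0e-05).

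Genes that transcribe mitochondrial DNA or regulate nuclear genes for mitochondria were called in both directions. Of 5 transcription genes 4 rose and 1, TFAM, fell, beside 37% called higher and 35.4% called lower among all tested genes. TEFM, the elongation factor, averaged 22.2 ± 0.832 FPKM in knockdown cells and 13.0 ± 0.969 FPKM in controls (0.73 ± 0.06 SE, limma adjusted p = 2.0e-05), TFB2M, an initiation factor, changed by 0.56 ± 0.06 (SE; limma adjusted p = 5.5e-05), and MTERF, a termination factor, by 0.47 ± 0.06 (SE; limma adjusted p = 1.2e-04). Of 9 nuclear regulators 5 rose, 3 fell and 1 did not pass. The ETS factor subunits GABPA (0.64 ± 0.08 SE, limma adjusted p = 1.1e-04) and GABPB1 (0.48 ± 0.05 SE, limma adjusted p = 6.7e-05), the nuclear receptor ESRRA (0.41 ± 0.04 SE, limma adjusted p = 3.7e-05), YY1 (0.22 ± 0.05 SE, limma adjusted p = 0.0034) and the coactivator PPRC1 (0.22 ± 0.06 SE, limma adjusted p = 0.0081) rose. The coactivators PPARGC1A (-0.91 ± 0.09 SE, limma adjusted p = 4.4e-05) and PPARGC1B (-0.33 ± 0.08 SE, limma adjusted p = 0.0064) fell, as did MYC, with 36.3, 36.0 and 37.9 FPKM in the knockdown libraries, against 59.7, 55.8 and 57.8 FPKM in the controls (-0.64 ± 0.04 SE, limma adjusted p = 4.7e-06). NRF1 had 13.8, 13.8 and 14.2 FPKM in the knockdown libraries, against 12.2, 13.5 and 12.9 FPKM in the controls, and did not pass (0.10 ± 0.06 SE, limma adjusted p = 0.12). Any part of these levels in the changes of the members was not tested.

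Cytosolic ribosomal protein genes, the most similar group, were less spread. Of 79 tested 35 rose and 12 fell, and 32 stayed uncalled. That is 59.5% called, 44.3% higher and 15.2% lower, beside 72.4%, 37% and 35.4% of all tested genes. The median absolute log2 fold change of the cytosolic genes was 0.15 beside 0.32 for the mitochondrial genes. Mean FPKM differed by at least 1.5-fold in 3.80% of the cytosolic genes beside 21.1% of the mitochondrial ones. The difference in spread was not tested, and the 2 sets of genes were not matched by level. The median level over the 83 cytosolic genes in the table was 1409 FPKM in knockdown cells and 1324 FPKM in controls. Over the mitochondrial genes it was 57.6 FPKM in knockdown cells and 63.6 FPKM in controls. RPL39L, a paralog of RPL39, had 23.8, 22.9 and 24.3 FPKM in the knockdown libraries, against 93.1, 86.5 and 90.5 FPKM in the controls (-1.88 ± 0.05 SE, limma adjusted p = 9.0e-08), and RPS13 (0.68 ± 0.04 SE, limma adjusted p = 1.6e-06) and RPS28 (0.66 ± 0.11 SE, limma adjusted p = 7.7e-04) rose. Ribosomal protein genes have many pseudogenes and some close paralogs, so these values are uncertain. Genes encoded in mitochondrial DNA were not analysed here.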

How the data were processed

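RNA-seq was analysed from 6 libraries of MDA-MB-435 cells, 3 with knockdown of ZCCHC24 and 3 controls, grouped by title. Per the labels' protocols, a stranded mRNA kit was used on total RNA and reads were paired. The authors deposited FPKM values, 1 column per library, per the file headers. The submitters' processing notes list TopHat 1.4.1, Cuffdiff 2.2.0 and hg19 with no role for each. Annotation, filters and scaling across libraries: not given in the sources used here. Many members have pseudogenes, so values depend on how shared fragments were assigned.

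Genes averaging 1 FPKM or more were kept (13343 of 57150), 1 blank row was left out, and log2(FPKM + 1) was fitted with limma 3.58.1 in R 4.3.3 (moderated and two-sided, prior variance following a trend with level, Benjamini-Hochberg adjustment, threshold 0.05). Fold changes on this scale understate changes of weak genes. Folds are ratios of mean FPKM, and errors are SD (n = 3) unless marked SE. An exact permutation test of 3 against 3 libraries cannot go below p = 0.1, so none was used. The fit was tested on simulated data. Alternatives were another pseudocount, filter, scaling, prior or weighting, a replicate block, leaving out each library, summed rows, subunits by structure and, chosen after seeing the data, members alone in their locus. Named members were the 10 largest rises and 10 largest falls with separate groups, the 3 highest and 2 lowest of each subunit, the 2 largest changes of each class and site, and those with a repeated symbol or a name that differs from the structure. Other genes were named for the 3 largest changes of their list, and all were named in 2 short lists. Members, lists and classes were chosen with earlier results of these data known. Further genes were named for a neighbouring start or an extreme value after their values were seen.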

Additional observations from a re-analysis of the deposited data

How the results depend on the processing

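ZCCHC24 kept its direction and call under every alternative run (-2.39 to -2.32 with any 1 library left out). Leaving out 1 library in turn gave 21 to 22 MRPL genes higher and 16 to 19 lower, 7 to 10 MRPS genes higher and 12 to 15 lower, and medians of -0.05 to 0.01 for MRPL and -0.11 to -0.06 for MRPS. Over all genes 4541 to 4821 were higher and 4508 to 4588 lower. The difference of medians, MRPL minus MRPS, stayed at 0.07 to 0.10. Counting only members alone in their listed locus, chosen after seeing the data, left 12 MRPL genes higher and 11 lower, 5 MRPS genes higher and 3 lower, an MRPS median of 0.12 and a difference of -0.13. These counts come from fewer genes, and the cause of the turn in sign was not tested. The MRPS genes counted include MRPS18A, MRPS30 and MRPS36, which are not small-subunit proteins by structure. The 20 members with the largest called changes kept their call and sign in every alternative that tested them. MRPL34, not called in the main fit, was called lower without control 2 (-0.18, limma adjusted p = 0.010). MRPS15, also uncalled in the main fit, was called higher without control 1 (0.16, limma adjusted p = 0.027).

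The 5 members nearest zero turned sign without being called, except MRPS17, which was called when its rows were summed (0.13). With median scaling MRPL3 was at 0.013, MRPL14 at 0.014 and MRPS17 at 0.025. With trimmed mean scaling MRPL36 was at -0.0018 and MRPS14 at -0.0029, and with sample weights MRPS17 was at 0.00079. With 1 library left out, MRPL3 ranged from -0.030 to 0.0068, MRPL14 from -0.047 to 0.010, MRPL36 from -0.049 to 0.055, MRPS14 from -0.013 to 0.030 and MRPS17 from -0.020 to 0.012. Scaling moved the median change of all genes by less than 0.03. Some calls moved with the settings. Without the filter on low values MRPS18B, MRPL13, MRPS6 and MRPS31 were not called (limma adjusted p = 0.051 to 0.065). Without the trend MRPS18B (limma adjusted p = 0.082) and MRPL13 (limma adjusted p = 0.051) were not called, nor was MRPS18B with median scaling (limma adjusted p = 0.13). MRPS15 was called higher with median scaling (limma adjusted p = 0.049) and with sample weights (limma adjusted p = 0.042).

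Deviations from the group means correlated at -0.03, -0.07 and 0.02 between libraries of equal number, which therefore were not treated as pairs. With the replicate block 10 MRPS genes were higher and 14 lower, MRPL counts did not move, MRPS34 (-0.14, limma adjusted p = 0.028) and MRPS36 (0.20, limma adjusted p = 0.024) were also called, and no other member changed its call. Absolute depth is unknown, so no counting interval can be given.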
